A study of Mus musculus with 20 samples.

Results

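The genes described here are 10 transcription factors of photoreceptors, the rods and cones that turn light into a neural signal: Nrl, Nr2e3, Crx, Otx2, Esrrb, Rorb, Prdm1, Thrb, Rxrg and Mef2d. They were chosen by their role in photoreceptors, with the CPM values of these same libraries in the 4 groups already known and with no cut-off on a value, and they are 10 of the 35006 genes counted. The calls below therefore describe where each gene stood among all genes and are not independent of that choice.

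Messenger RNA was sequenced from the retinas of C57BL/6J mice, an inbred laboratory strain, in 20 libraries. The untreated groups, young control and old control, had 4 mice each, and the treated groups, young NACET and old NACET, had 6 mice each. NACET (N-acetyl-L-cysteine ethyl ester), an ester of N-acetylcysteine that enters cells, was given for 5 days at a daily 50 mg/kg dissolved in what the mice drank, and controls drank water without it. The age of the 4 young controls was 119 days and that of the 4 old controls 668 days. The titles give 129 days for 4 and 119 days for 2 young NACET mice, and 668, 581 and 574 days for 2 old NACET mice each. Young NACET replicate 6 is 119 days in its title and 129 days in its batch tag. By label, 4 young mice were female, 2 in each young group, and every old mouse was male. The methods of the study describe male mice.

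Gene counts per library were 17.7 to 31.1 M, and the summed level of 14 rod output genes was 77160 CPM or more in every library. Old control replicate 4, labelled male, had 2473 CPM of Xist, the RNA of the inactive X chromosome, and 0.0415 CPM over 4 Y-linked genes, against 204 to 283 CPM over those genes in the other libraries labelled male. Summed CPM of 9 genes of surface epithelium such as Krt5 was over 100 CPM in 4 libraries, old control replicate 2 and young NACET replicates 3, 4 and 5, and at most 70.1 CPM in the other 16. For the 10 factors, results are therefore also given without these libraries where that changed a call, and for other named genes the number of alternatives that kept the call is given. CPM are counts per 1 M counts after TMM scaling, which adjusts library sizes for differences in composition. The Xist, Y-linked and surface epithelium values of this check are the exception, since gene counts alone set their scale.

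Photoreceptors arise from precursors that express Otx2, which switches on Crx, and both homeodomain proteins bind the promoters of phototransduction genes. In rods, Nrl and its target Nr2e3 switch on rod genes and keep cone genes silent, with Rorb acting upstream of Nrl and Esrrb needed for rods to survive. In cones, the thyroid hormone receptor Thrb and its partner Rxrg set which opsin is made, and Prdm1 keeps young photoreceptor precursors from becoming bipolar cells.

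Per kilobase of exon, Nrl was the most abundant of the 10 factors, at 868 ± 90.2 CPM per kb (SD, n = 20 libraries). Crx followed at 375 ± 33.5 CPM per kb and Nr2e3 at 239 ± 35.1 CPM per kb, and the ranges over libraries of these 3 genes did not touch each other or the next gene. Esrrb (74.1 ± 22.4 CPM per kb), Mef2d (74.0 ± 5.67 CPM per kb) and Otx2 (59.7 ± 5.51 CPM per kb) had overlapping ranges. Rorb (16.6 ± 6.24 CPM per kb) and Thrb (16.1 ± 1.60 CPM per kb) also overlapped, as did Rxrg (4.53 ± 0.70 CPM per kb) and Prdm1 (2.59 ± 0.80 CPM per kb) at the bottom. The rod-defining Nrl was thus measured far above the cone factors Thrb and Rxrg in this rod-rich tissue. Even the scarcest factors were well counted: the lowest count in any library was 164 for Prdm1 and 153 for Rxrg.

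**Figure D1:**
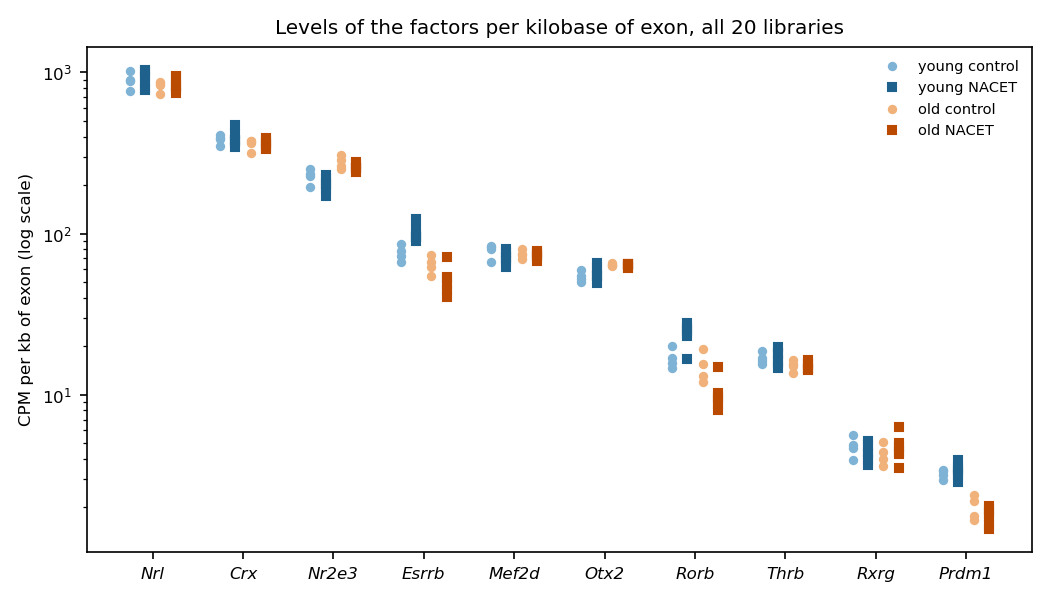
Levels of the 10 factors in CPM per kb of exon on a log axis, 1 point per library and 1 colour per group, with genes ordered by their mean over 20 libraries. Nrl lies between 737 and 1035 CPM per kb, and Prdm1 between 1.46 and 3.91 CPM per kb.

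The factors differed in their spread over all 20 libraries. Rorb varied most, with a coefficient of variation (CV, the SD as a percent of the mean) of 37.7%, followed by Prdm1 at 30.8% and Esrrb at 30.2%. The other 7 factors had a CV of 7.67% to 15.5%. From its lowest to its highest library, Rorb spanned 3.51-fold, Esrrb 3.05-fold and Prdm1 2.69-fold, whereas Nrl spanned 1.41-fold and Otx2 1.34-fold.

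**Figure D2:**
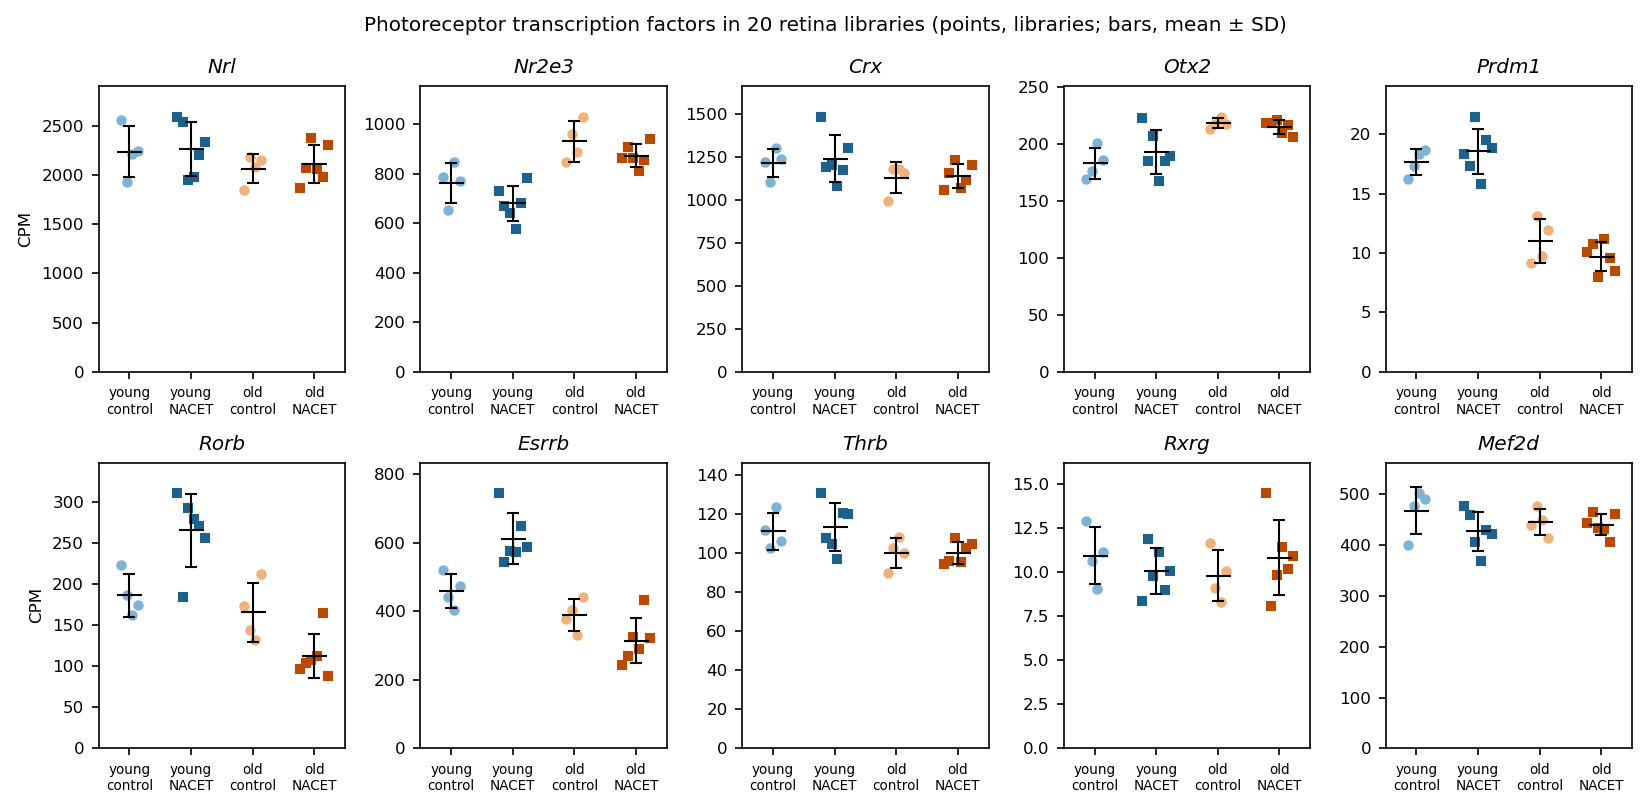
CPM of each factor in every library, by group, with the group mean and SD as bars and each vertical axis starting at 0. Prdm1 lies lower in every old than in every young library, Rorb and Esrrb are highest in young NACET and lowest in old NACET, and Nrl, Crx and Mef2d lie at similar levels in the 4 groups.

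Old and young controls were compared first, to see which factors differ with age in mice without NACET. Of the 10 factors, 1 was called (edgeR adjusted p under 0.05): Prdm1, which fell. Among all 16484 genes tested, 1.42% were called. Old and young libraries did not overlap for 2 factors, Prdm1 and Otx2, beside 10.3% of all genes. The median log2 change of the 10 was -0.13, with 2 higher and 8 lower in old mice, beside a median of -0.01 over all genes. With DESeq2, which adjusted p-values for 16026 genes and called 4.50% of them, 3 factors were called: Prdm1, Otx2 and Nr2e3.

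The comparison of old NACET with young NACET mice asked the same question in treated animals, and shares no library with the first. Here 4 of the 10 factors were called, Rorb, Esrrb and Prdm1 lower and Nr2e3 higher in old mice, beside 4.88% of 16276 genes. The same 4 had no overlap between the groups, beside 3.35% of all genes, and the median log2 change of the 10 was -0.11. The 10 factors were chosen with these values known, and Prdm1 was already known to differ in this contrast. These counts therefore describe the 10 factors and do not test them against other genes.

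NACET itself was compared with control within each age. In old mice, edgeR called 0 of the 10 factors. By edgeR, 2 had an unadjusted p under 0.05 (Rorb and Esrrb), beside 2393 of all 16562 genes. DESeq2 called 0 factors, beside 375 of the 16682 genes it adjusted. Of all 16562 genes, 0.543% were called by edgeR, and no factor had separated groups, beside 3.80% of all genes. The 90 genes behind that share became 8 when old control replicate 2 was left out, 15 when its replicate 4 was, 12 when old NACET replicate 3 was, 1 with all 4 groups in one fit and 0 with 668-day mice only, where 1396 genes had an unadjusted p under 0.05 by edgeR. In young mice 0 of the 10 were called by edgeR or DESeq2, and the share edgeR called among all 16588 genes was 0%. By edgeR, Esrrb and Rorb again had an unadjusted p under 0.05, beside 724 of all 16588 genes. Esrrb was the only factor whose young groups did not overlap, as in 0.784% of all genes. The comparisons with control share libraries with the comparisons of age, so their values below stand side by side and are not independent.

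**Figure D3:**
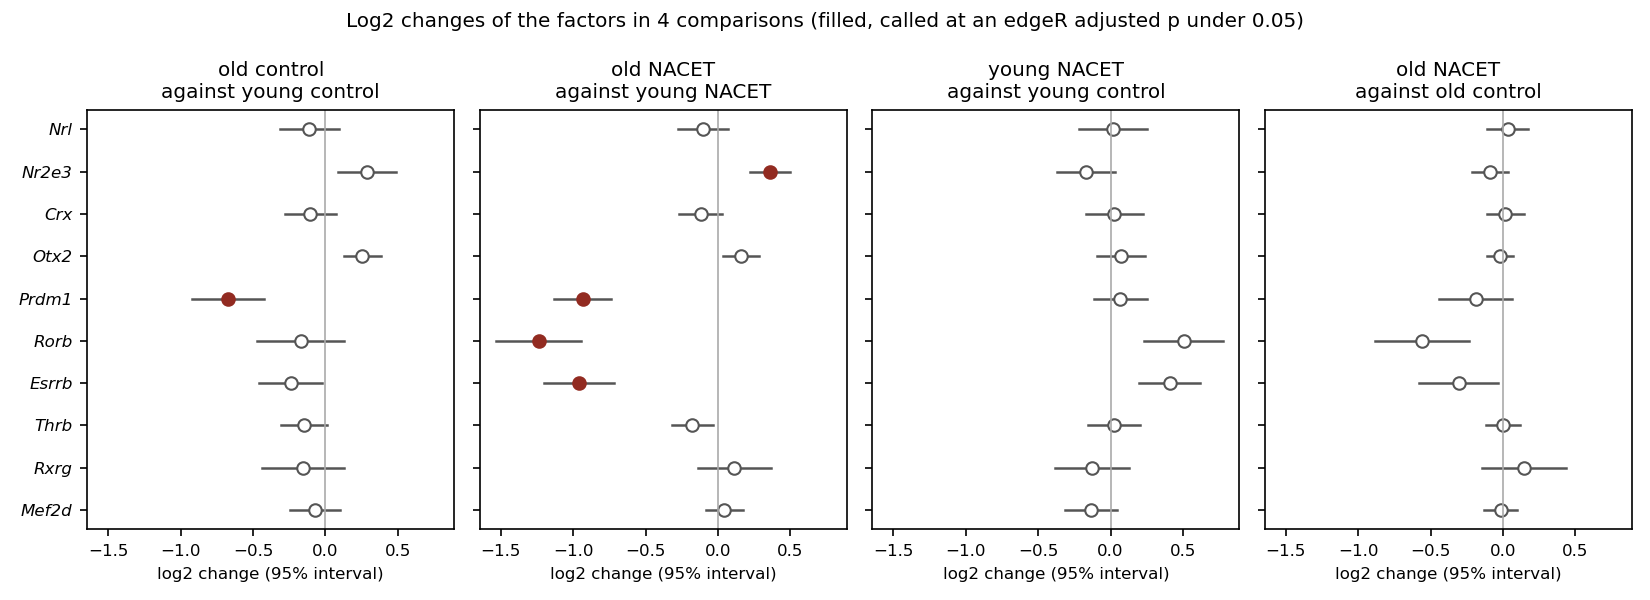
Log2 change of each factor with its 95% interval in 4 comparisons, where filled points were called. Filled points are Prdm1 in the controls, and Prdm1, Rorb, Esrrb and Nr2e3 between the NACET groups, and the Rorb and Esrrb points lie above 0 under NACET in young and below 0 in old mice.

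Otx2 (ENSMUSG00000021848.9, chr14:49277354-49287319, mm9, minus strand) is the homeodomain factor that commits precursors to the photoreceptor fate, and it is also made in bipolar cells and pigment epithelium. Young controls had 170, 176, 201 and 186 CPM and old controls 214, 218, 224 and 218 CPM. Every old control was above every young one. The log2 change was 0.26 (SE 0.06, edgeR adjusted p 0.058), just outside the threshold. It was called in 3 of 18 alternatives, which include DESeq2 (adjusted p 0.00533) and a fit of all 4 groups (edgeR adjusted p 0.0455). It was not called with labelled males only (0.34, edgeR adjusted p 0.1) or in libraries without Xist only (0.34, edgeR adjusted p 0.222), the latter a later choice. Every old mouse was labelled male. In young controls, the 2 labelled female (201 and 186 CPM) lay above the 2 labelled male (170 and 176 CPM). Young NACET ranged from 168 to 223 CPM with a median of 188 CPM, and old NACET from 206 to 221 CPM with a median of 218 CPM. The old NACET values lay within the young NACET range, and their log2 difference was 0.16 (SE 0.06, edgeR adjusted p 0.132). Old libraries were alike in Otx2, with an SD of 4.33 CPM in controls and 5.94 CPM under NACET. Summed CPM of 15 pigment epithelium genes, which include Rpe65 and Ttr, was 146 to 309 CPM in old controls, 72.0 to 173 CPM in old NACET, 87.7 to 374 CPM in young controls and 148 to 261 CPM in young NACET. Between old NACET and old controls, 13 of these 15 genes were lower in old NACET, and the Otx2 log2 difference was -0.02 (95% interval -0.11 to 0.07). The part of pigment epithelium in the Otx2 values was not tested.

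Crx (ENSMUSG00000041578.8, chr7:16451296-16465317, mm9, minus strand) is the cone-rod homeobox factor that drives phototransduction genes in both photoreceptor types. It had 1215 ± 82.8 CPM (SD, n = 4) in young controls, 1240 ± 139 CPM (SD, n = 6) in young NACET, 1129 ± 90.4 CPM (SD, n = 4) in old controls and 1140 ± 70.7 CPM (SD, n = 6) in old NACET. No comparison passed the test. The log2 change with age was -0.10 (95% interval -0.28 to 0.07) in controls and -0.12 (95% interval -0.27 to 0.03) under NACET. The log2 change with NACET was 0.03 (95% interval -0.17 to 0.22) in young and 0.01 (95% interval -0.11 to 0.14) in old mice. The intervals reach at most 0.28 on the log2 scale in either direction.

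Prdm1 (ENSMUSG00000038151.6, chr10:44156983-44248307, mm9, minus strand), also called Blimp1, is a zinc finger repressor that holds back the bipolar cell programme in new photoreceptors and is also used by lymphocytes and epithelia. Young controls had 16.2, 17.4, 18.4 and 18.7 CPM and old controls 9.17, 13.1, 9.75 and 12.0 CPM. The 4 old controls all lay below the 4 young ones. Prdm1 fell by 0.67 on the log2 scale (SE 0.11, edgeR adjusted p 0.0133), to 0.627 of the young level. The call was lost without old control replicate 3 (log2 change -0.62, edgeR adjusted p 0.0586), with labelled sex as a covariate (-0.60, edgeR adjusted p 0.116) and in libraries without Xist only (-0.64, edgeR adjusted p 0.209), a choice made once the data had been seen, which leaves 2 young and 3 old controls.

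In the treated mice, young NACET libraries ranged from 15.8 to 21.5 CPM of Prdm1 (median 18.6 CPM) and old NACET libraries from 8.01 to 11.2 CPM (median 9.87 CPM). The groups did not overlap, and the log2 difference was -0.93 (SE 0.09), a contrast in which this gene was already known to differ and for which no p is given. By cohort, old NACET mice had 10.1 and 10.8 CPM at 668 days, 8.01 and 11.2 CPM at 581 days, and 9.62 and 8.54 CPM at 574 days. Each cohort of old mice was thus below every young library, whichever age within the old range it had. With NACET the test was not passed: the log2 change of Prdm1 was 0.07 (95% interval -0.12 to 0.25) in young and -0.19 (95% interval -0.44 to 0.06) in old mice. Among young controls, the 2 labelled female (18.4 and 18.7 CPM) lay above the 2 labelled male (16.2 and 17.4 CPM). Every old mouse was labelled male, and with labelled males only the change between controls was -0.60 (edgeR adjusted p 0.143). In young NACET, the 2 labelled female (18.8 and 19.5 CPM) lay within the range of the 4 labelled male (15.8 to 21.5 CPM).

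Other cells that use Prdm1 were looked for by their markers. The T cell genes Cd3e and Cd3g had no count in any control, and the summed CPM of 9 lymphoid genes, most of it from Igj, was 11.2 to 12.8 CPM in young and 10.3 to 13.0 CPM in old controls. Only 2 of the 9 were tested between controls, and they went opposite ways. Ptprc, at 0.49 CPM in young and 0.91 CPM in old controls, changed by 0.90 (SE 0.31, edgeR adjusted p 0.184). Igj changed by -0.16 (SE 0.10, edgeR adjusted p 0.462). The part of lymphoid cells in the Prdm1 values was not tested. Without the library high in surface epithelium, old control replicate 2, the Prdm1 change between controls was -0.78 (SE 0.11, edgeR adjusted p 0.00935). Because these are whole retinas, fewer cells of a type and less RNA per cell cannot be told apart, here and for every gene below.

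**Figure D4:**
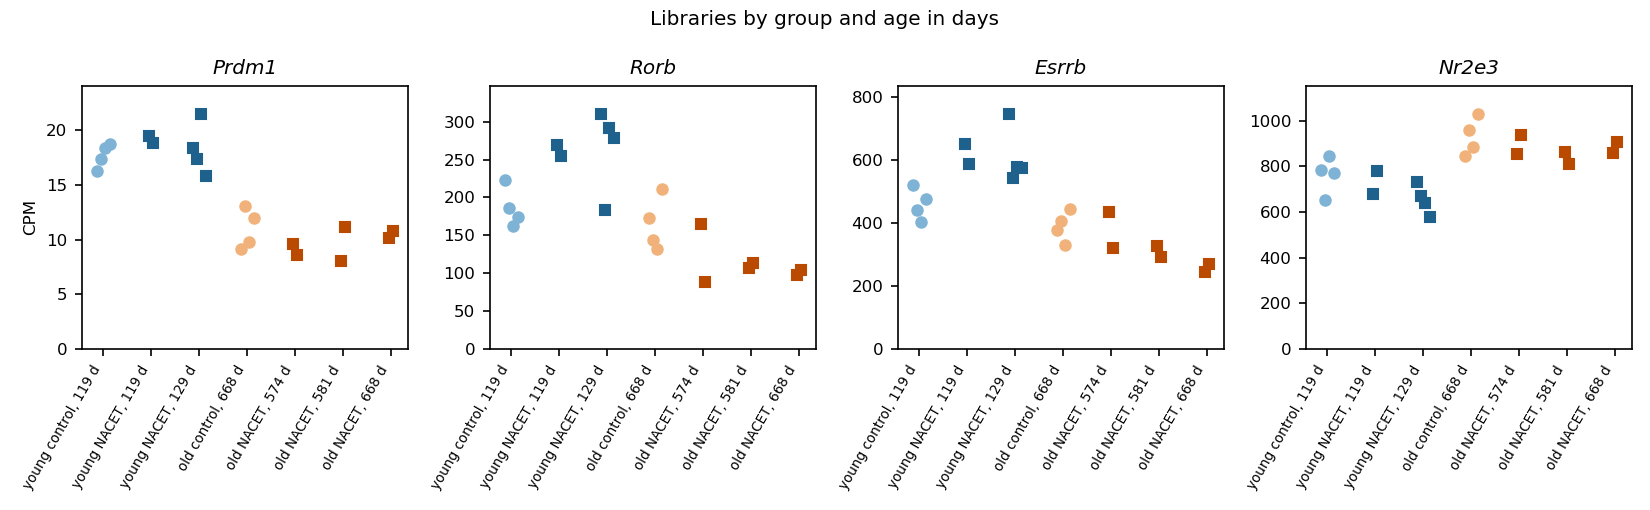
CPM of Prdm1, Rorb, Esrrb and Nr2e3 in each library, with libraries separated by group and by the age in days given in their titles. Old NACET mice of 574, 581 and 668 days have 8.01 to 11.2 CPM of Prdm1, below the lowest young library at 15.8 CPM.

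Nrl (ENSMUSG00000040632.8, chr14:56137815-56143818, mm9, minus strand), a basic leucine zipper protein of the MAF family, is the switch for the rod fate. It had 2235 ± 258 CPM (SD, n = 4) in young controls, 2267 ± 274 CPM (SD, n = 6) in young NACET, 2065 ± 152 CPM (SD, n = 4) in old controls and 2111 ± 193 CPM (SD, n = 6) in old NACET. The groups overlapped in each comparison. Log2 changes with age were -0.11 (95% interval -0.32 to 0.09) in controls and -0.10 (95% interval -0.27 to 0.07) under NACET, and those with NACET were 0.02 (95% interval -0.21 to 0.25) in young and 0.03 (95% interval -0.11 to 0.17) in old mice.

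Nr2e3 (ENSMUSG00000032292.2, chr9:59790578-59808466, mm9, minus strand) is the orphan nuclear receptor that acts with Nrl and represses cone genes in rods. Young controls had 787, 652, 845 and 770 CPM and old controls 845, 959, 886 and 1030 CPM. Of the 4 old controls, 3 were above every young control, and the log2 change of 0.29 (SE 0.09, edgeR adjusted p 0.15) was not called, though it was with DESeq2 (adjusted p 0.0444). Young NACET ranged from 578 to 781 CPM (median 676 CPM) and old NACET from 810 to 939 CPM (median 863 CPM). These groups did not overlap: every old NACET library was higher. Nr2e3 rose by 0.36 on the log2 scale with age under NACET (SE 0.07, edgeR adjusted p 0.00389), and it was called in each of the 22 alternatives. With NACET its log2 change was -0.17 (95% interval -0.37 to 0.03) in young and -0.09 (95% interval -0.22 to 0.03) in old mice. Its exons share 61 bases, 1.81% of their length, with Gm15507 on the same strand.

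Between the NACET groups, the 95% interval of the log2 change was 0.22 to 0.50 for Nr2e3 and -0.27 to 0.07 for Nrl, which acts upstream of it, and the difference between the genes was not tested. The genes whose log2 CPM followed Nr2e3 most closely over the 20 libraries were D730039F16Rik (Pearson r 0.90), Hdc (r 0.89), Bend7 (r 0.89), Acadm (r 0.88) and Gsc2 (r 0.87), and within groups these r were 0.64, 0.64, 0.75, 0.71 and 0.57.

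Rorb (ENSMUSG00000036192.9, chr19:19005095-19185686, mm9, minus strand) encodes retinoid-related orphan receptor beta, which acts upstream of Nrl in rod precursors and is also made in amacrine and horizontal cells. Esrrb (ENSMUSG00000021255.10, chr12:87702067-87862578, mm9, plus strand) encodes oestrogen-related receptor beta, an orphan nuclear receptor of rods that controls genes of energy metabolism. The same library was highest in both receptors in each of the 4 groups, so the 250 bases before each of their annotated starts are printed here. The sequences come from RefSeq (GRCm38.p6, a later build than the mm9 of the counts), read 5′ to 3′ on the strand of the gene. Starts are numbered by rising position on the chromosome. The upstream start is therefore the second for Rorb, on the minus strand, and the first for Esrrb, on the plus strand. Capitals mark any match to 3 motifs on either strand: TAATCC, the core bound by CRX and OTX2, AGGTCA, the nuclear receptor half-site, and TGCTGA, the half-site of MAF proteins such as NRL.
Rorb first start (chr19:19001118-19001367, minus strand): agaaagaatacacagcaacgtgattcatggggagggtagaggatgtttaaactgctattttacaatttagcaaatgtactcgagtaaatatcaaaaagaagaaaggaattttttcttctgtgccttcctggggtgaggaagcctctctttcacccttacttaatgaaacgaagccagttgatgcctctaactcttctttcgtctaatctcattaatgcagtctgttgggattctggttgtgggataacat
Rorb second start (chr19:19111197-19111446, minus strand): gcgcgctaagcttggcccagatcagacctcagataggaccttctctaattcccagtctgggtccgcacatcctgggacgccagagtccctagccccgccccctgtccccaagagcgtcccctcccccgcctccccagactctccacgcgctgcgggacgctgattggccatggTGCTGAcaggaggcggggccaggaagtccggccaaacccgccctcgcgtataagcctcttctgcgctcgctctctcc
Esrrb first start (chr12:86360867-86361116, plus strand): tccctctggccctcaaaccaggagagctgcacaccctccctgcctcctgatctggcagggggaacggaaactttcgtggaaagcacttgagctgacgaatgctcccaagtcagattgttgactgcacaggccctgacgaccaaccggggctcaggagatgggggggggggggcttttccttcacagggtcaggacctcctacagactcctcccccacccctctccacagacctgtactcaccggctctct
Esrrb second start (chr12:86421394-86421643, plus strand): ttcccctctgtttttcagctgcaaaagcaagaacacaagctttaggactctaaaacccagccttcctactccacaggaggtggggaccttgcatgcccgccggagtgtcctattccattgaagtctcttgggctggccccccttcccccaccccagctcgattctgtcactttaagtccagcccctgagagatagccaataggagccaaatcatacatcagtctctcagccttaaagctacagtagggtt
Only the second Rorb window held a match, 1 MAF half-site on the strand of the gene that begins 77 bases before the start, and neither Esrrb window held any of the 3 motifs. Among all 32851 windows of this length, 6.25% held TAATCC, 14.0% AGGTCA and 16.1% TGCTGA. All 10 factors had at least 1 window, 17 in all, of which 3 held TAATCC, 2 AGGTCA and 3 TGCTGA. The only window with 2 matches to 1 motif was that of Crx, with TAATCC on the opposite strand starting 94 and 21 bases before the start. A match describes letters and not a bound site.

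Rorb had 223, 186, 162 and 174.5 CPM in young controls and 173, 144, 132 and 212 CPM in old controls. Young NACET libraries ranged from 184 to 310 CPM (median 274 CPM) and old NACET libraries from 88.5 to 164 CPM (median 106 CPM). The control groups overlapped, whereas the treated groups did not: every old NACET library was below every young NACET library. Rorb fell by 1.24 on the log2 scale from young to old NACET mice (SE 0.14, edgeR adjusted p 5.03e-05), to 0.424 of the young level. In controls the change with age was -0.17 (SE 0.14, edgeR adjusted p 0.579).

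Under NACET, 5 of 6 young libraries were above every young control, and the log2 change was 0.50 (SE 0.13, 95% interval 0.23 to 0.78). Rorb ranked 10 by p among 16588 genes, of which 724 had an unadjusted p under 0.05, but its edgeR adjusted p was 1. In old mice 5 of 6 NACET libraries were below every old control, with a log2 difference of -0.56 (SE 0.15, 95% interval -0.88 to -0.23, edgeR adjusted p 0.115). The remaining library in old mice, old NACET replicate 5 at 164 CPM, stood apart from the other 5 at 88.5 to 113 CPM. Without it the change was -0.70 and was called (edgeR adjusted p 0.0317). Without old control replicate 4, the library labelled male that had Xist, the change was -0.42 (edgeR adjusted p 0.296).

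Age cohorts were looked at within the treated groups. Young NACET mice of 119 days, the age of the young controls, had 270 and 255 CPM of Rorb, above all young controls at 162 to 223 CPM. Both were labelled female, and the one at 255 CPM, replicate 6, has 129 days in its batch tag, unlike the young controls. With the days of the batch tag as a covariate, the Rorb log2 change with NACET in young mice was 0.53 (SE 0.22) and was not called. Young NACET mice of 129 days had 184 to 310 CPM. Old NACET mice of 668 days, the age of the old controls, had 97.0 and 104 CPM, below all old controls at 132 to 212 CPM. With the 668-day mice only, 2 NACET against 4 control, the log2 change was -0.71 (SE 0.16, edgeR adjusted p 0.524), a fit in which 0 of 16839 genes were called by edgeR and 1396 had an unadjusted p under 0.05.

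Esrrb had 520, 442, 403 and 474.5 CPM in young controls and 377, 404.5, 330 and 443 CPM in old controls. Young NACET libraries ranged from 543 to 745 CPM (median 581.5 CPM) and old NACET libraries from 245 to 434 CPM (median 306 CPM). All 6 young NACET libraries were above all young controls and above all old libraries. With NACET in young mice, the log2 change was 0.41 (SE 0.10, 95% interval 0.20 to 0.62), ranked 5 by p of 16588 genes, with an edgeR adjusted p of 1. In old mice it was -0.31 (SE 0.13, 95% interval -0.58 to -0.03, edgeR adjusted p 0.285), with 5 of 6 NACET libraries below every control.

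With age, Esrrb fell by 0.96 on the log2 scale in treated mice (SE 0.12, edgeR adjusted p 9.29e-05), to 0.514 of the young level. In controls the change was -0.24 (SE 0.10, edgeR adjusted p 0.258). The age cohorts of old NACET mice had 245 and 269.5 CPM at 668 days, 291.5 and 325.5 CPM at 581 days, and 434 and 321 CPM at 574 days. The 668-day pair, the one of the same age as the old controls, was lowest. With the 668-day mice only, the log2 change under NACET was -0.59 (SE 0.11, edgeR adjusted p 0.47).

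Rorb and Esrrb followed each other from library to library. Over the 20 libraries, Pearson r of their log2 CPM was 0.94 and the Spearman rank correlation 0.95, and r of their deviations from the group means was 0.74. In each of the 4 groups the same library was highest in both: young control replicate 1, young NACET replicate 1, old control replicate 4 and old NACET replicate 5. The lowest library was also shared in young control (replicate 3), young NACET (replicate 2) and old control (replicate 3). In old NACET it differed: replicate 6 was lowest in Rorb (88.5 CPM) and replicate 1 in Esrrb (245 CPM). Of 16992 other genes, Lpin2 (r 0.96), Lbh (r 0.96), Rhobtb1 (r 0.95), Esrrb (r 0.94) and A930033H14Rik (r 0.90) were most like Rorb. The genes most like Esrrb were Lpin2 (r 0.95), Lbh (r 0.94), Rorb (r 0.94), Lgmn (r 0.91) and Smpd1 (r 0.91). The libraries behind these values differ in age, treatment and depth, and the r are given as descriptions. Lpin2 had 130 ± 8.41 CPM (SD, n = 4) in young controls, 152 ± 8.88 CPM (SD, n = 6) in young NACET, 115 ± 8.11 CPM (SD, n = 4) in old controls and 103 ± 9.32 CPM (SD, n = 6) in old NACET, the same order of groups as Rorb and Esrrb. The genes most like Prdm1 were others: Dusp5 (r 0.91), Kirrel (r 0.91), Dlc1 (r 0.90), Lpin1 (r 0.89) and Mylk (r 0.89), with r of 0.32 to 0.46 within groups.

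**Figure D5:**
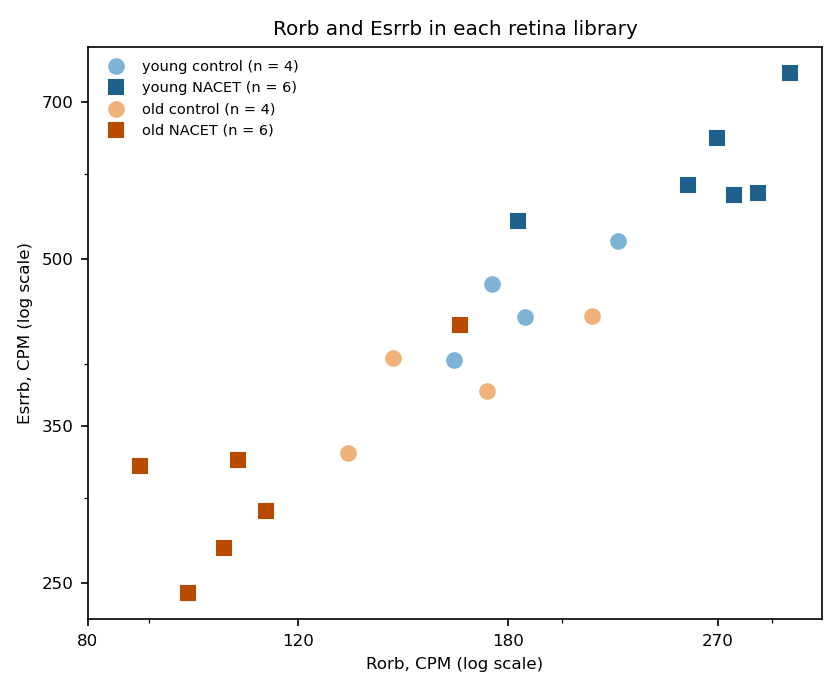
Esrrb against Rorb in CPM, both on log axes, with 1 point per library and a colour and shape per group. Old NACET libraries lie at the lower left and young NACET libraries at the upper right, with the old NACET library of 164 CPM Rorb and 434 CPM Esrrb among the controls.

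The interaction of NACET with age asked whether NACET changed a factor differently in old and young mice, and used all 20 libraries. By edgeR 0 of the 10 factors were called, as were 0% of all 16993 genes. Of all genes, 1052 had an unadjusted p under 0.05 by edgeR, as did 2 factors. These were Rorb, with a difference between ages of -1.07 (SE 0.22, 95% interval -1.53 to -0.60, edgeR adjusted p 0.0678), and Esrrb, with -0.72 (SE 0.18, 95% interval -1.08 to -0.36, edgeR adjusted p 0.103). They ranked 19 and 74 by p among 16993 genes. DESeq2 called both, Rorb at an adjusted p of 0.0175 and Esrrb at 0.0173, beside 0.403% of the 21366 genes it adjusted. The estimate for Rorb was -1.04 without the libraries high in surface epithelium (edgeR adjusted p 0.939), -0.92 when old control replicate 4 was left out (edgeR adjusted p 0.0883), and -0.80 in libraries without Xist only (edgeR adjusted p 0.594). For the other 8 factors the interaction lay between -0.26 (Prdm1) and 0.27 (Rxrg) on the log2 scale, and every 95% interval included 0.

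Thrb (ENSMUSG00000021779.9, chr14:18493474-18870602, mm9, plus strand), the thyroid hormone receptor that induces the medium-wavelength opsin in cones, was measured at 111 ± 9.37 CPM in the 4 young controls (SD) and at 100.3 ± 7.61 CPM in the 4 old controls (SD). The 6 young treated mice had 113.5 ± 12.5 CPM (SD) and the 6 old treated mice 100.3 ± 5.63 CPM (SD). The lower values of old mice did not pass the test, with log2 changes of -0.15 (SE 0.07, edgeR adjusted p 0.334) in controls and -0.18 (SE 0.07, edgeR adjusted p 0.138) under NACET. Without the young NACET libraries high in surface epithelium, also a later choice, the second was -0.25 and was called (edgeR adjusted p 0.0395).

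Rxrg (ENSMUSG00000015843.4, chr1:169528515-169569754, mm9, plus strand), the retinoid X receptor that pairs with Thrb in cones, ranged from 8.07 to 14.5 CPM over all libraries, and its group means lay between 9.80 and 10.9 CPM. Of the 4 comparisons between groups, its interval was widest for NACET in old mice, a log2 change of 0.15 (95% interval -0.15 to 0.44). Mef2d (ENSMUSG00000001419.10, chr3:87946294-87976008, mm9, plus strand), a MADS-box factor that acts with Crx on photoreceptor genes, ranged from 369 to 502.5 CPM. It had the lowest CV of the 10 over all libraries, at 7.67%, with group means of 427.5 to 468 CPM and log2 changes between -0.14 and 0.04 in the 4 comparisons between groups. Of its exon length, 8.81% is shared with 1700113A16Rik on the opposite strand, and the counts do not tell the strands apart.

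Genes that these factors act on were taken as lists. Of 14 rod output genes, such as Gnat1 (rod transducin) and Sag (rod arrestin), 0 were higher in old than in young controls and 0 were called, with a median log2 change of -0.18 beside -0.01 over all genes. The smallest p-values were those of Sag at -0.35 (SE 0.12, edgeR adjusted p 0.193) and Reep6 at -0.27 (SE 0.09, edgeR adjusted p 0.171). Between the NACET groups all 14 were lower in old mice, with a median of -0.23. Reep6, a membrane-shaping protein of rods, fell by 0.44 (SE 0.09, edgeR adjusted p 0.00984), a call kept in all 22 alternatives. With NACET in old mice 0 were called and the list median was -0.12. The summed rod output was 84380 to 106600 CPM in old controls and 77160 to 94040 CPM in old NACET. Between the same groups, the log2 difference was 0.03 for Nrl, 0.01 for Crx, -0.56 for Rorb and -0.31 for Esrrb, none of them called. A link between these factors and rod output was not tested.

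Of 10 cone output genes, 0 were called between the controls, where the medium-wavelength opsin gene Opn1mw, which Thrb induces, had a log2 difference of -0.57 (SE 0.13, edgeR adjusted p 0.0554). Between the NACET groups Opn1mw fell by 0.57 (SE 0.10, edgeR adjusted p 0.00256) and the cone transducin Gnat2 by 0.28 (SE 0.07, edgeR adjusted p 0.0294), calls kept in 22 and 17 of 22 alternatives. The cone arrestin Arr3 was called in old mice. It had 421.5 ± 58.8 CPM in the 4 old controls (SD) and 560 ± 45.5 CPM in the 6 old NACET mice (SD), and rose by 0.41 on the log2 scale (SE 0.08, edgeR adjusted p 0.0456). This call was kept in 7 of 19 alternatives, with a log2 change of 0.30 to 0.51, and was lost with 668-day mice only (0.30, edgeR adjusted p 0.546), in the fit of all 4 groups (edgeR adjusted p 0.127) and without any of old control replicates 1, 2 and 4 or old NACET replicates 2 to 6. In young mice the Arr3 value was 0.39 (SE 0.11) with an edgeR adjusted p of 1. Over the list the median log2 change was -0.19 with age in controls and -0.20 under NACET.

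Coregulators of the factors, a list of 15 genes of which 14 were in the counts, gave 1 call between controls: Crebbp, an acetyltransferase, fell by 0.28 (SE 0.06, edgeR adjusted p 0.0482), a call kept in 6 of 18 alternatives and lost when any of 7 of the 8 libraries, all but young control replicate 1, was left out. Between the NACET groups Atxn7, a subunit of the SAGA complex that meets Crx, rose by 0.21 (SE 0.05, edgeR adjusted p 0.0303), and Casz1, a zinc finger factor of rods, fell by 0.22 (SE 0.05, edgeR adjusted p 0.023), calls kept in 15 and 17 of 22 alternatives. Of 15 relatives of the factors, which include MEF2 and MAF genes, 12 to 14 were tested in each comparison, with 0 called between the controls or with NACET at either age and a median log2 change of 0.07 with age in controls. Among 10 regulators of bipolar cells, the fate that Prdm1 holds back, 0 were called in any of the 5 comparisons, and their summed level was 375 to 458 CPM in young and 409 to 455 CPM in old controls. The 5 bipolar markers, such as Grm6 and Prkca, also gave 0 calls, with a median log2 change of -0.06 with age in controls.

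Signals that could move with the factors were measured beside them. Of 16 clock genes, 1 was called in 1 comparison, Nr1d1, which fell by 0.19 between the NACET groups (SE 0.05, edgeR adjusted p 0.0428; kept in 10 of 22 alternatives), and the summed clock level was 1666 to 1911 CPM over all libraries. Of 10 immediate early genes tested with NACET in old mice, 0 were higher and 3 were called lower (Fos, Nr4a1 and Egr1). By edgeR, 8 of the 10 had an unadjusted p under 0.05, beside 2393 of all 16562 genes. Their median log2 change was -0.30, and the summed level was 206 to 234 CPM in controls and 164 to 183 CPM under NACET. Those calls were kept in 16, 12 and 12 of 19 alternatives, and all 3 were lost with 668-day mice only (edgeR adjusted p 0.524 to 0.532), with the age cohort as a covariate (0.162 to 0.258) and with all 4 groups in one fit (0.084 to 0.113). Between the NACET groups, where Rorb and Esrrb were called, Egr1 fell by 1.505 on the log2 scale, Fos by 0.68 and Nr4a1 by 0.58, and Atf3 rose by 0.65, each kept in all 22 alternatives. Between controls Atf3 rose by 0.60 (edgeR adjusted p 0.00655), a call kept in 15 of 18 alternatives and lost with labelled sex as a covariate (edgeR adjusted p 0.0614), with labelled males only and with libraries without Xist only. In young mice the sum was 175 to 257 CPM in controls and 169 to 211 CPM under NACET, with 0 called. Of the 10 immediate early genes tested there, 0 were higher and the median log2 change was -0.33. By edgeR 4 of them had an unadjusted p under 0.05, beside 724 of all 16588 genes. Their part in the Rorb and Esrrb values was not tested. Summed markers of amacrine cells, which also make Rorb, were 629 to 666 CPM in old controls and 659 to 763.5 CPM in old NACET. Of 7 listed genes, 5 were in the counts, and all 5 were higher in old NACET with 0 called. Horizontal cell markers were not measured, and the part of either cell type in the Rorb values was not tested. Of the 9 surface epithelium genes, of which 8 were tested, 3 were called lower in old NACET than in old control mice, and 4 lower in old than in young NACET mice, and none of these calls held without the libraries high in those genes. Without the libraries high in those genes, Rorb differed between old NACET and old controls by -0.62 (SE 0.16, edgeR adjusted p 0.178) and Rorb, Esrrb, Prdm1 and Nr2e3 were still called between the NACET groups.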

How the data were processed

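Polyadenylated RNA from 20 mouse retinas was sequenced as single-end reads. The authors aligned reads to mm9 with TopHat2 2.1.0 and deposited raw counts per gene from HTSeq 0.11.2, without use of strand. The gene annotation they counted with is not given in the sources used here, and positions are GENCODE's for mm9. From the deposited counts, changes were tested with edgeR 4.0.16 (R 4.3.3): TMM scaling, filterByExpr on low counts, the quasi-likelihood test, and Benjamini-Hochberg adjustment over all genes tested, with a call at an adjusted p under 0.05. Each comparison was fitted on its own groups and the interaction on all 4 groups. DESeq2 1.42.0, which the authors used, was an alternative, and an adjusted p it did not give was left out of its counts. The steps were tested on simulated data.

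Gene counts per library were 17.7 to 31.1 M, reads outside genes 14.1% to 20.5% and ambiguous reads 1.09% to 1.20%. Counts on a row that names no gene, 0.000941% to 0.002184%, were left out. All 42 pairs of libraries within a group differed by more than sampling noise (chi-square per degree of freedom 2.63 to 34.7). Nothing states that replicates share a litter or day, and p-values measure the spread between these mice only.

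The 10 factors and the 14 other gene lists were chosen with earlier results of these data known. The text names the 10 factors, called genes of the lists of related genes and, for rod and cone output, the 2 smallest p-values where none was called. The rule also asked for those 2 genes in the other lists, which are not printed, and some results for genes of these lists are not reported here. Lpin2 levels are shown because it was most like both Rorb and Esrrb. Genes most like a called factor were the 5 with the highest Pearson r. In all, 49 alternatives were fixed, and those that leave out libraries with Xist or with high surface epithelium markers were chosen after seeing the data.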

Additional observations from a re-analysis of the deposited data

Results flagged for a closer look

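In 2 of 40 groups of libraries, 1 library stood apart from the rest of its group by Dixon's test, which chance alone gives in about 1 of 20 groups. Crx was 994.6 CPM in old control replicate 1 and 1159 to 1183 CPM in the other old controls. Rorb was 164.3 CPM in old NACET replicate 5 and 88.5 to 113 CPM in the other old NACET libraries.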

How the results depend on the processing

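No call changed direction under any alternative. Between controls, 1 factor was called as reported, 3 with DESeq2 and 2 with all 4 groups in one fit. Over all genes these settings called 234 of 16484, 721 of 16026 and 461 of 16993. There were 0 factors called with labelled sex as a covariate, with labelled males only or with libraries without Xist only. Those settings called 74 of 17021, 69 of 16822 and 72 of 16521 genes. Leaving out 1 replicate in turn gave 0 to 2 factors. The 0 came without old control replicate 3, where 113 of 16695 genes were called. The 2 came without young control replicate 3, where 153 of 16587 genes were called. For NACET in old mice 0 became 1 (Rorb) with the replicate block, where its log2 change was -0.63 (edgeR adjusted p 0.0312). That fit called 37 of 17528 genes. Leaving out 1 replicate in old mice gave 0 to 1, with 1 (Rorb) without old NACET replicate 5, where 23 of 16529 genes were called. Replicate numbers did not pair the mice: deviations of same-numbered libraries correlated at -0.14 to 0.12. The replicate block changed no other count of factors called. For NACET in young mice every alternative gave 0. Between the NACET groups leaving out 1 replicate gave 4 to 5. For the interaction 0 became 2 with DESeq2 and 1 without a low-count filter (Rorb, edgeR adjusted p 0.0287). Leaving out 1 replicate there gave 0 to 1, with 1 (Rorb) without young NACET replicate 1 (edgeR adjusted p 0.0458), old control replicate 3 (0.042) or old NACET replicate 5 (0.0468). The causes were not tested. Per kb of the longest transcript, Otx2 (88.8 CPM per kb) and Mef2d (82.0 CPM per kb) changed places.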
